A study of Zea mays with 20 samples.

Results

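The fermentation enzymes of maize were examined here in the ear internode, the length of stem that carries the ear. Pyruvate decarboxylase turns pyruvate into acetaldehyde, and alcohol dehydrogenase then reduces acetaldehyde to ethanol and returns NAD+ to glycolysis. In maize the pathway is best known from flooded roots and seedlings, where adh1 and adh2 encode classical anaerobic proteins and where pyruvate decarboxylase transcripts also accumulate under low oxygen. Members were the probe sets assigned to a gene whose symbol or synonym was pdc or adh followed by a number. They were also selected on level, since only probe sets that read above 5 on the log2 scale in at least 2 of the 20 arrays were kept. The gene table matched 9 probe sets of 5 genes, and 5 probe sets of 4 genes passed that level, among 11033 of 17555 maize probe sets that passed it in the whole table.

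Early silking and emerging tassel were the harvest stages, and the material was field-grown, irrigated and given no treatment. All 5 lines are recombinant inbreds of the cross F288 x F271, picked for what they carry at 4 quantitative trait loci, which affect lignin and how easily the cell wall is degraded. RIL118 has the unfavorable allele at the locus in bin 9.02, RIL39 and RIL71 have it at the locus in bin 6.06, and RIL54 and RIL99 have the favorable allele at all 4. Every line had 2 arrays at either stage, 20 in 10 groups, and the labels do not say whether the arrays of a group came from separate plants. The p-values therefore measure the spread between arrays of a group, which may be technical. The bin 9.02 class is 1 line and the other classes are pairs of lines, so an allele cannot be told apart from the rest of a line's genome.

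Array quality and tissue markers were checked before the members. The share of probe sets above 5 lay between 57.2% and 58.0% on every array, and the correlation of replicate arrays had its minimum in the RIL118 tassel group (0.980) and its maximum in the RIL39 tassel group (0.998). The RIL118 tassel arrays correlated less with each other than 1 of them did with an array of another group (0.982). Less RNA was recorded for the silking extracts (53.0 to 202 ng) than for the tassel extracts (113 to 417 ng). Secondary wall genes, the markers of the internode (the cellulose synthases cesa10, cesa11 and CesA12, and bk2), were present on every array, with mean log2 levels of 9.57 to 12.4 at silking and 12.5 to 13.4 at tassel. Leaf photosynthesis genes were also present, at means of 11.4 to 13.2 at silking and 11.8 to 13.3 at tassel. Of 7 genes matched by the kernel list, 5 were below 5 on every array. The remaining ones were the zein gz27 and GLB1, a symbol that the gene table also lists for a hemoglobin.

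Among the pyruvate decarboxylases, pdc2 (gene 542651, chromosome 8) set RIL118 apart from all other lines. The probe set Zm.10317.1.S1_at read 7.73 and 8.73 at silking, against 7.72 and 7.28 at tassel, in RIL118. In RIL39 it read 5.05 and 5.96 at silking, with 4.48 and 5.09 at tassel. RIL71 gave 3.98 and 3.70 at silking, with 3.40 and 3.22 at tassel. These were the highest and the lowest lines, with RIL39 next to RIL118 but below it on every array. RIL54 gave 4.78 and 4.25 at silking, against 3.93 and 3.43 at tassel. The RIL99 arrays read 5.34 and 4.88 at silking, against 3.86 and 4.41 at tassel. Both favorable lines overlapped the range of the bin 6.06 class, and every RIL118 array lay above every array of the other lines, whose highest was 5.96. The share of all probe sets that separate RIL118 in this way was not computed.

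A further pdc2 probe set, Zm.14518.1.S1_s_at, passed the level filter only through RIL118, where 3 of the 4 arrays were above 5, so its difference between lines is described and not tested. It read 5.47 and 6.03 at silking, with 5.79 and 4.55 at tassel, in RIL118. The 16 arrays of the other lines lay between 2.61 and 2.97, with a median of 2.90, and none came near the RIL118 range. Here too the share of all probe sets that separate RIL118 was not computed. The suffix of this probe set marks probes that can match more than 1 transcript, so which pdc transcript it reads cannot be settled from the table. The other pdc2 probe sets, Zm.14518.1.S1_at and Zm.14518.1.A1_at, stayed at 2.11 to 2.22 and at 1.84 to 1.90 on all arrays, RIL118 included. Over the 20 arrays the 2 pdc2 probe sets that passed correlated at r = 0.91, and over the 16 arrays without RIL118, where one of them sat at its floor, at r = 0.55. These arrays share RNA extracts and the values are a description. The probe set Zm.10317.1.S1_at was above 5 in 4 arrays outside RIL118 (3 of RIL39 and 1 of RIL99) and would have passed without RIL118.

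**Figure D1:**
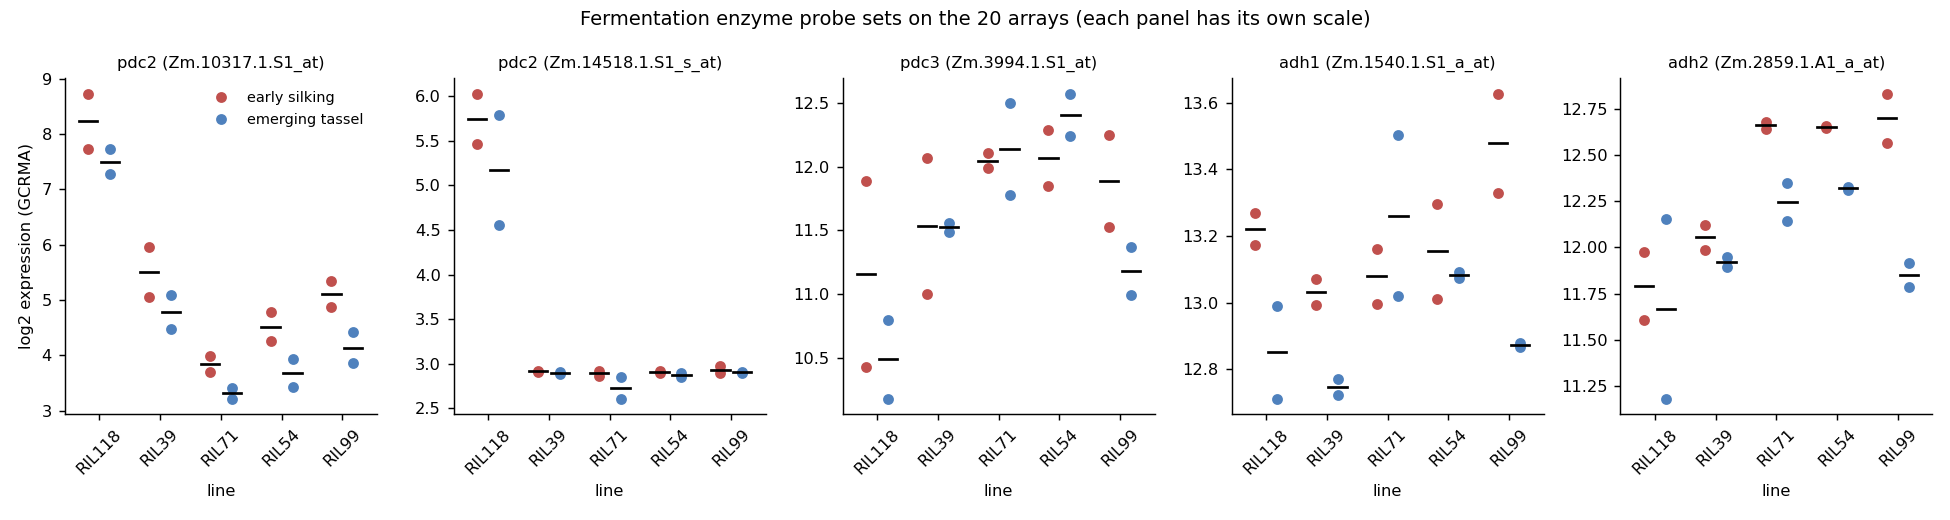
Log2 expression (GCRMA, vertical axis, own scale in each panel) of the 5 fermentation enzyme probe sets by line, with early silking in red on the left and emerging tassel in blue on the right; points are arrays and bars the mean of 2 arrays. Both pdc2 panels show RIL118 above all other lines, with 7.28 to 8.73 for Zm.10317.1.S1_at, whereas adh1, adh2 and pdc3 read above 10 in every line.

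pdc3 (gene 541919, chromosome 1), another pyruvate decarboxylase gene, was above 5 in all 20 arrays and had its lowest line mean in RIL118. It read 11.89 and 10.43 at silking, with 10.18 and 10.80 at tassel, in RIL118. RIL39 gave 12.07 and 11.00 at silking, with 11.56 and 11.49 at tassel, and RIL71 gave 11.99 and 12.11 at silking, with 12.50 and 11.78 at tassel. The lowest arrays of RIL118 were also the lowest of the experiment, but its first silking array reached the range of the other lines. RIL54 gave 11.85 and 12.28 at silking, against 12.24 and 12.57 at tassel. RIL99 gave 11.52 and 12.25 at silking, against 11.37 and 10.99 at tassel. Thus the stages overlapped in all lines except RIL99, and the SD between the 2 arrays of a group reached 1.03 (RIL118 at silking). What share of all probe sets kept the stages apart in RIL99 was not computed.

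pdc1 (gene 542376, chromosome 8), a pyruvate decarboxylase gene known to respond to anaerobic stress in maize roots, did not pass the level filter. Its probe set Zm.166.2.A1_a_at missed the limit by 1 array: it read 6.31 on the first RIL118 tassel array and 2.23 on the second. Single arrays of RIL71 (3.80), RIL54 (3.83) and RIL99 (3.35) at tassel were also above the other arrays, which lay at 2.23 to 2.34. The value of 6.31 was thus not shared by its replicate. Its other probe set, Zm.166.2.S1_at, stayed at 2.17 to 2.26 on all arrays. Just inside the limit was the pdc2 probe set Zm.14518.1.S1_s_at, with 3 arrays above 5, while Zm.10317.1.S1_at had 8.

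The alcohol dehydrogenases read high in every line and stage. For adh1 (gene 542363, chromosome 1), which encodes the main alcohol dehydrogenase of maize kernels and of flooded roots, RIL118 gave 13.27 and 13.17 at silking, against 12.99 and 12.71 at tassel. RIL39 gave 13.07 and 12.99 at silking, against 12.77 and 12.72 at tassel. RIL71 gave 13.16 and 13.00 at silking, against 13.50 and 13.02 at tassel. Silking arrays were above tassel arrays in the first pair of these lines, and in RIL71 they overlapped. RIL54 gave 13.30 and 13.01 at silking, against 13.07 and 13.09 at tassel, also an overlap. RIL99 gave 13.33 and 13.63 at silking, against 12.88 and 12.87 at tassel, the widest separation of the 5 lines. The share of all probe sets whose stages separate within a line was not computed, so these separations are only a description. The whole range of adh1 was 12.71 to 13.63, less than 1 log2 unit over all 20 arrays.

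adh2 (gene 542364, chromosome 4), the second anaerobically induced alcohol dehydrogenase gene, read 11.97 and 11.61 at silking, against 11.18 and 12.15 at tassel, in RIL118. RIL39 gave 12.12 and 11.99 at silking, against 11.95 and 11.89 at tassel. RIL71 gave 12.68 and 12.64 at silking, against 12.35 and 12.14 at tassel. In both bin 6.06 lines the silking arrays lay above the tassel arrays, while in RIL118 the tassel arrays spanned those of silking. RIL54 gave 12.66 and 12.65 at silking, against 12.31 and 12.33 at tassel. RIL99 gave 12.56 and 12.83 at silking, against 11.78 and 11.91 at tassel. Both favorable lines kept the stages apart. With so few arrays in a group such a separation can arise by chance, and its share over all probe sets was not computed. The separations within lines are therefore only a description.

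Early silking was set against emerging tassel as the mean change of the 5 lines. pdc2, adh2 and adh1 rose, whereas pdc3 did not pass the test. The call was an adjusted p under 0.05 in a limma fit of all tested probe sets, and 67.7% of the table passed it (40.9% as higher at silking, 26.8% as lower), so a call for 3 of 4 genes is near the background. pdc2 (Zm.10317.1.S1_at) averaged 5.44 ± 1.63 at silking and 4.68 ± 1.59 at tassel (SD, n = 10 each, lines included). Its log2 change was 0.76 (SE 0.18, 95% interval 0.38 to 1.14, adjusted p = 0.00206) with 5 of 5 lines higher at silking. It was above 5 in 5 of the 10 silking arrays and 3 of the 10 tassel arrays, and GCRMA pulls dim values toward a floor, so no linear fold is given for it. Of all tested probe sets, 1474 rose by as much or more. adh2 had a log2 change of 0.37 (SE 0.11, adjusted p = 0.00915) with 5 of 5 lines higher at silking. adh1 changed by 0.23 (SE 0.08, adjusted p = 0.0199) with 4 of 5 lines higher, the exception being RIL71 (-0.18). Bulk RNA cannot tell more cells that express a gene from more RNA per cell.

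For pdc3 the mean change was 0.19 (SE 0.21, 95% interval -0.26 to 0.65, adjusted p = 0.429), with 3 of 5 lines higher. The pdc2 probe set Zm.14518.1.S1_s_at was read within RIL118 alone, the line where it was off its floor, and its change there was 0.58 (adjusted p = 0.226). The fit pools the spread of all groups, and the other lines sat at the floor. That p therefore does not measure the spread in RIL118, where the SD was 0.40 at silking and 0.88 at tassel. All tested probe sets had a median change of 0.12 between the stages. After each array was centred on its median the adh1 change was 0.18 (adjusted p = 0.0621). The adh1 call was also lost without RIL118 (0.20, adjusted p = 0.0728). With the recorded RNA amount as a covariate, which is lower at silking as given above, the change was 0.29 for adh2 (adjusted p = 0.176) and 0.20 for adh1 (adjusted p = 0.197), and pdc2 kept its call. The pdc2 call was lost when the line entered as a random block (0.76, adjusted p = 0.112). That setting fitted only the stages and gave all probe sets the same correlation within lines, with an SE of 0.41 in place of 0.18 for pdc2.

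**Figure D2:**
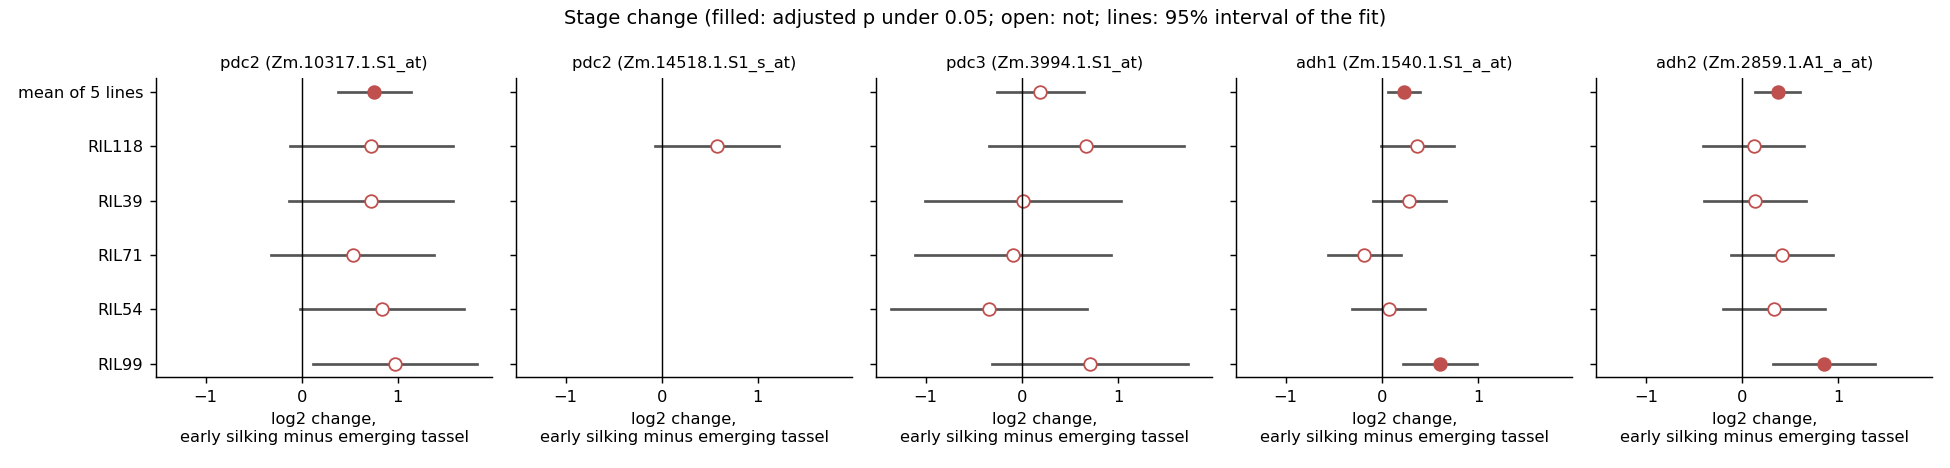
Log2 change (early silking minus emerging tassel, horizontal axis) of each probe set, as the mean of 5 lines and within each line, with the 95% interval of the fit; filled points have an adjusted p under 0.05. pdc2 Zm.10317.1.S1_at lies right of 0 in all 5 lines (0.53 to 0.97), and within lines the calls are adh1 and adh2 in RIL99; Zm.14518.1.S1_s_at is drawn for RIL118 alone.

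Within single lines the fit had only 2 arrays on each side, and few calls were made for the members. The share of the table called was 11.7% in RIL118, 27.1% in RIL39, 32.8% in RIL71, 36.9% in RIL54 and 45.2% in RIL99. RIL99 was the line with member calls, and both alcohol dehydrogenases rose there: adh2 by 0.85 (SE 0.24, adjusted p = 0.0133) and adh1 by 0.61 (SE 0.18, adjusted p = 0.0139). Both of these calls were lost when the first RIL99 tassel array or the second RIL99 silking array was left out. The adh1 call was also lost without the second RIL99 tassel array (0.60, adjusted p = 0.0548), and the adh2 call with the RNA amount as a covariate (0.76, adjusted p = 0.0536). The pdc2 changes (Zm.10317.1.S1_at) were 0.73 in RIL118, 0.72 in RIL39, 0.53 in RIL71, 0.84 in RIL54 and 0.97 in RIL99 (SE 0.39 each), with adjusted p-values of 0.0606 to 0.320. Whether the stage change differed between lines was tested with the interaction of stage and line, which called 6.15% of all probe sets and no member. The adjusted p was 0.232 for adh1, 0.493 for adh2, 0.644 for pdc3 and 0.975 for pdc2, so the RIL99 calls do not show that RIL99 differed from the other lines.

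The lines were then set against each other over both stages. Line differences, tested with a moderated F over the 5 lines, were called for 44.0% of all probe sets. Of the members they were called for pdc2 (F = 72.9, adjusted p = 6.85e-07), adh2 (F = 7.03, adjusted p = 0.0124) and pdc3 (F = 5.72, adjusted p = 0.0229), and not for adh1 (F = 1.86, adjusted p = 0.243). pdc2 was named for study with results of these arrays known, so none of its p-values between lines is independent evidence. pdc2 (Zm.10317.1.S1_at) had a mean of 7.86 in RIL118, followed by 5.14 in RIL39, 4.62 in RIL99, 4.10 in RIL54 and 3.57 in RIL71. In that order RIL118 and RIL39 differed (adjusted p = 1.84e-05, in a pair that called 24.7% of all probe sets), whereas no later pair of neighbours did (adjusted p of 0.199 to 0.306). Lines further apart in it, RIL39 and RIL54 (adjusted p = 0.0169, 23.7% of all probe sets called) and RIL71 and RIL99 (adjusted p = 0.0232, 14.0% called), did differ. For adh2 the order was RIL54 (12.49), RIL71 (12.45), RIL99 (12.27), RIL39 (11.99) and RIL118 (11.73). For pdc3 it was RIL54 (12.24), RIL71 (12.09), RIL99 (11.53), RIL39 (11.53) and RIL118 (10.82). No neighbours differed beyond their spread in either gene, and both had the same order of lines. adh1 ran between 12.89 in RIL39 and 13.18 in RIL99.

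RIL118 was compared with the favorable lines RIL54 and RIL99 to ask what accompanies the unfavorable allele at bin 9.02. pdc2 rose and pdc3 and adh2 fell in RIL118, and adh1 did not pass the test. This contrast called 20.7% of all probe sets (11.7% higher and 8.92% lower). pdc2 (Zm.10317.1.S1_at) averaged 7.86 ± 0.61 in RIL118 (SD, n = 4) and 4.36 ± 0.62 in the favorable lines (n = 8). The difference was 3.50 on the log2 scale (SE 0.24, 95% interval 2.98 to 4.03, adjusted p = 4.56e-07). Of the 8 favorable arrays 7 were not above 5, so the size of this difference depends on how GCRMA treats dim values and no linear fold is given. pdc2 was named for study with results of these arrays known, so this p is not independent evidence. The pdc2 difference was 3.41 at silking (adjusted p = 2.45e-05, 15.9% of all probe sets called) and 3.59 at tassel (adjusted p = 1.84e-05, 16.3% called), and the 2 did not differ by the interaction test (-0.18, 95% interval -1.22 to 0.86, adjusted p = 0.855). None of the members lies on chromosome 9, which holds bin 9.02, or on chromosome 6.

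pdc3 averaged 10.8 ± 0.75 in RIL118 and 11.9 ± 0.55 in the favorable lines, a difference of -1.06 (SE 0.29, adjusted p = 0.0213). It was called at tassel (-1.31, adjusted p = 0.0458) and not at silking (-0.82, adjusted p = 0.197), and the difference between the stages was not called (0.49, adjusted p = 0.634). The overall call rested on single arrays of RIL118: it was lost without its first tassel array (-0.91, adjusted p = 0.108) or its second silking array (-0.70, adjusted p = 0.116). adh2 averaged 11.7 ± 0.43 in RIL118 and 12.4 ± 0.37 in the favorable lines, a difference of -0.65 (SE 0.15, adjusted p = 0.0095). It was called at silking (-0.89, adjusted p = 0.0139) and not at tassel (-0.42, adjusted p = 0.196), with an interaction of -0.47 (adjusted p = 0.348). The adh2 call was lost without the second RIL118 silking array (-0.56, adjusted p = 0.0547). adh1 differed by -0.11 (95% interval -0.34 to 0.12, adjusted p = 0.490).

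**Figure D3:**
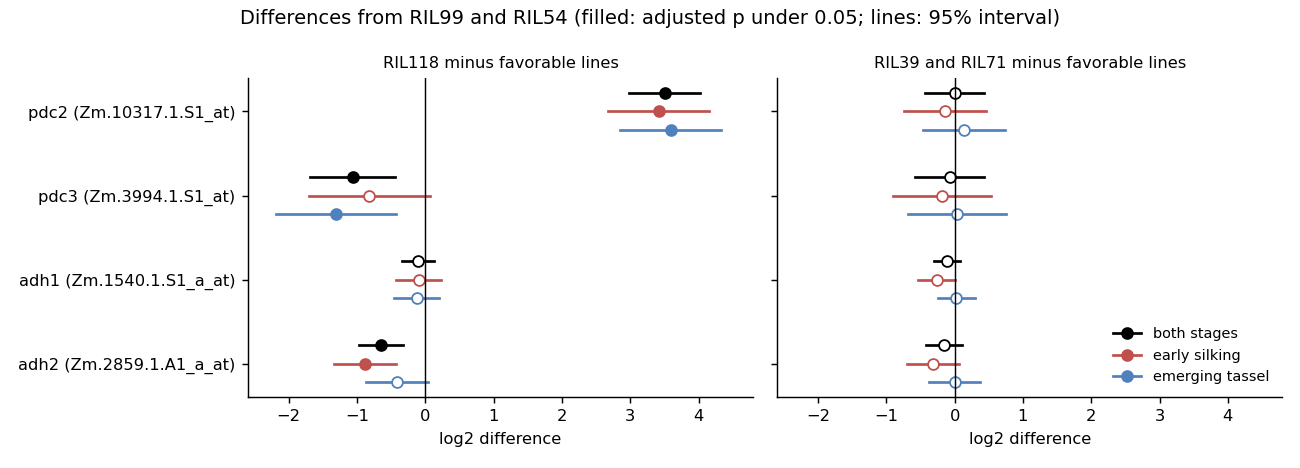
Log2 difference (horizontal axis) from the favorable lines RIL54 and RIL99 of RIL118 on the left and of RIL39 and RIL71 on the right, for both stages together and each stage, with the 95% interval; filled points have an adjusted p under 0.05. pdc2 stands at 3.50 in RIL118 and near 0 in the bin 6.06 class, where every point is open.

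Some marker genes moved with the same contrast. Of 9 leaf genes, 4 were lower in RIL118 (lhcb5, lhcb6, Cab-m7 and psaH) and 5 were not called, with a median of -0.66, and the mean level of the list was 11.4 to 12.5 on RIL118 arrays and 12.1 to 12.9 on arrays of the favorable lines. The internode gene bk2, a COBRA-like gene of secondary walls, was higher in RIL118 (1.45, adjusted p = 0.00937), while the 3 cellulose synthases were not called. The meristem genes fea2 (1.06) and knox7 (0.50) were also higher, and the other 2 measured were not called. Their part in the pdc2, pdc3 and adh2 differences was not tested.

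The bin 6.06 class, RIL39 and RIL71, was compared with the same favorable lines. No member was called, where 18.3% of all probe sets were. pdc2 (Zm.10317.1.S1_at) averaged 4.36 ± 0.96 in the bin 6.06 class and 4.36 ± 0.62 in the favorable lines (SD, n = 8 each), with a 95% interval of the difference of -0.43 to 0.42. The differences were -0.16 for adh2 (adjusted p = 0.410), -0.12 for adh1 (adjusted p = 0.398) and -0.07 for pdc3 (adjusted p = 0.870). Inside this class pdc2 differed between the lines: RIL71 was below RIL39 by a log2 difference of -1.57 (SE 0.28, adjusted p = 0.00197), with -1.67 at silking (7.12% of all probe sets called) and -1.47 at tassel (10.9% called), both called. All 4 RIL71 arrays lay below all 4 RIL39 arrays, a separation whose share over all probe sets was not computed. No RIL71 array was above 5, so no linear fold is given. That contrast called 16.6% of all probe sets, and its other member values were 0.47 for adh2 (adjusted p = 0.0837), 0.28 for adh1 (adjusted p = 0.139) and 0.56 for pdc3 (adjusted p = 0.261). The adh2 difference was called with array weights (adjusted p = 0.0371) and without RIL118 (adjusted p = 0.00752), and the adh1 difference without the second RIL71 tassel array (0.40, adjusted p = 0.0419). Between the favorable lines, RIL54 minus RIL99, 16.0% of all probe sets and no member were called, with -0.53 for pdc2 (adjusted p = 0.233) and 0.70 for pdc3 (adjusted p = 0.177). The interaction of class and stage called 0.807% of all probe sets for the bin 6.06 class and 7.84% for RIL118, and no member in either.

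The 2 arrays of a group differed in opposite directions for pdc2 and pdc3 in 9 of 10 groups. The array with more pdc2 (Zm.10317.1.S1_at) had less pdc3 in every group but RIL71 at tassel. Centred on their group, the 2 genes correlated at r = -0.84 over 20 arrays, and uncentred at -0.72, as a description of arrays that share their extracts. The arrays also differed in how much signal 5′ control probe sets gave relative to their 3′ partners, a sign of RNA length. The mean difference was taken over 5 pairs of probe sets, with actin repeated among them. That difference was -4.56 to -2.69 log2 units at silking and -4.85 to -3.20 at tassel, and -4.07 to -3.33 in RIL118 against -3.85 to -2.78 in the favorable lines. In the replicate pairs pdc2 moved against it in 9 of 10 groups and pdc3 with it in 8 of 10, while adh1 and adh2 each moved with it in 5 of 10. adh1 and adh2 moved the same way in 8 of 10 groups. What share of all probe sets moved in these ways was not computed, so the counts of groups are only a description.

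With the 5′ minus 3′ difference as a covariate, a setting added after the data were seen, the pdc2 stage change was called within each of the 5 lines. It was 0.82 in RIL118 (adjusted p = 0.0315), 1.08 in RIL39 (0.00632 adjusted), 0.85 in RIL71 (0.0151 adjusted), 1.07 in RIL54 (0.00372 adjusted) and 1.10 in RIL99 (0.0019 adjusted), with an SE of 0.22 to 0.23 in place of 0.39. For the same change this setting called 1699 of 11033 probe sets in RIL118 and 3406 in RIL39. It called 3918 in RIL71, 4528 in RIL54 and 5513 in RIL99. The mean pdc2 change over lines stayed called with this covariate, and so did the RIL118 differences of pdc2, pdc3 and adh2. These contrasts called 7642 and 2233 of all probe sets. The pdc2 difference of RIL54 minus RIL99, not called without the covariate, was called with it (-0.64, adjusted p = 0.0164), as were 1960 of 11033 probe sets. The pdc3 stage change became -0.013 (adjusted p = 0.951).

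**Figure D4:**
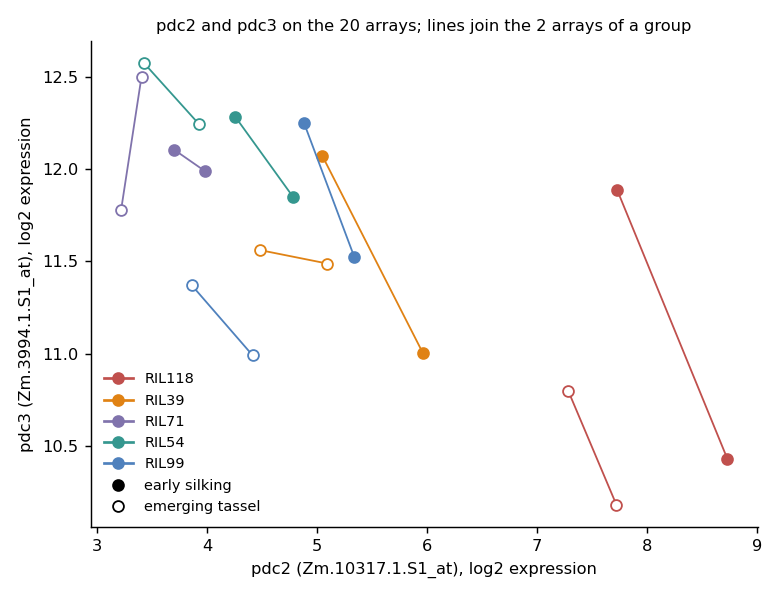
Log2 expression of pdc3 (vertical axis) against pdc2 Zm.10317.1.S1_at (horizontal axis) on the 20 arrays, coloured by line, filled at early silking and open at emerging tassel, with a line joining the 2 arrays of each group. The joining lines slope down in 9 of 10 groups, and RIL118 stands to the right at 7.28 to 8.73. How often other probe sets slope this way was not computed.

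Genes whose pattern over the 10 group means was most like that of each pdc2 probe set were taken among probe sets with 1 named gene. For Zm.10317.1.S1_at these were SE1A (r = 0.94), the retinoblastoma-related rrb1 (0.91), pr5 (0.91), the inositol phosphate kinase gene lpa2 (0.90) and HMT-2 (0.88), and 42 of all tested probe sets had r above 0.9. At the other end stood LOC541942 (-0.96), dad1 (-0.94) and IPP (-0.93). For Zm.14518.1.S1_s_at the most alike were pr5 (0.98), prp4 (0.95), SE1A (0.92), lpa2 (0.90) and HMT-2 (0.87), with pr5 and prp4 belonging to the pathogenesis-related protein families PR-5 and PR-1. pr5 averaged 10.1 in RIL118 and 2.93 in the other lines, and prp4 4.31 in RIL118 and 1.80 in the other lines. These correlations are a description over 10 means in which RIL118 stands apart. Zm.14518.1.S1_s_at sat at its floor in the other lines, so any transcript high in RIL118 alone must look like it.

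**Figure D5:**
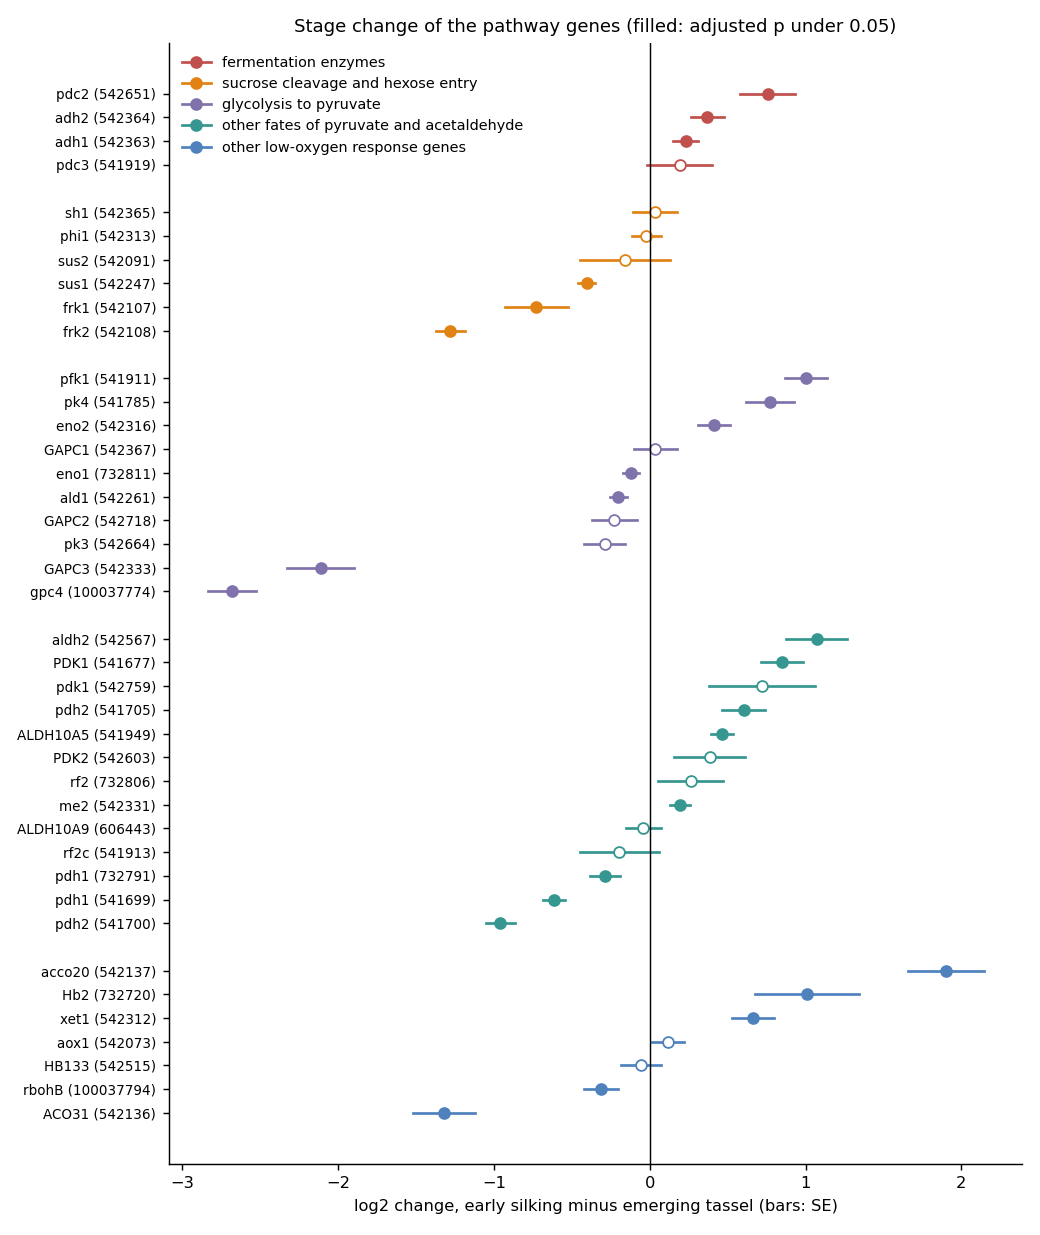
Log2 change (early silking minus emerging tassel, horizontal axis, bars SE) of the fermentation enzymes and of 4 lists of related genes, 1 probe set per gene with its gene ID; filled points have an adjusted p under 0.05. pdc2, adh2 and adh1 lie right of 0, and the fructokinases and the lowest glyceraldehyde-3-phosphate dehydrogenases lie left of it.

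The steps that feed and compete with fermentation were read in the same stage contrast, with 1 probe set per gene. Over the 4 lists 23 of 36 measured genes were called (63.9%), near the 67.7% of all probe sets, so the counts below are read against that share. Of 6 genes that cleave sucrose or bring hexoses into glycolysis, none was higher and 3 were lower at silking: the fructokinases frk2 (-1.28) and frk1 (-0.73) and the sucrose synthase sus1 (-0.41). The 3 that did not pass were sucrose synthases sh1 and sus2 and the phosphohexose isomerase phi1, and the list had a median of -0.28, where all probe sets had 0.12. sh1, like the alcohol dehydrogenases, is known as an anaerobic gene of maize. Genes of this and the glycolytic list were not sorted by that response.

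Of 10 measured glycolytic genes, 3 were higher, 4 were lower and 3 did not pass, with a median of -0.16. pfk1 (1.0), pk4 (0.77) and the enolase eno2 (0.41) were higher. The cytosolic glyceraldehyde-3-phosphate dehydrogenases gpc4 (-2.68) and GAPC3 (-2.11), the aldolase ald1 (-0.20) and the enolase eno1 (-0.12) were lower, while GAPC1 (0.04), GAPC2 (-0.23) and pk3 (-0.29) did not pass. gpc4 averaged 8.51 ± 0.74 at silking and 11.2 ± 0.89 at tassel (SD, n = 10 each), and the level was lower at silking in 5 of 5 lines. The sequence relation of gpc4 and GAPC3 means that their probe sets may share transcripts.

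Of 13 measured genes for other fates of pyruvate and acetaldehyde, 5 were higher, 3 were lower and 5 did not pass, with a median of 0.26. Some aldehyde dehydrogenases oxidise acetaldehyde to acetate, and which of the listed ones do so was not examined. Of these genes, aldh2 (also rf2b, 1.07) and ALDH10A5 (0.46) were higher, while rf2 (0.26), rf2c (-0.20) and ALDH10A9 (-0.04) did not pass. PDK1 (0.85), listed also as pdlk1 and so as a kinase that restrains pyruvate dehydrogenase, was higher, as were the pdh2 entry 541705 (0.60) and the malic enzyme me2 (0.19). The pdh2 entry 541700, listed also as pgd2, was lower (-0.96), as were the pdh1 entries 541699 (-0.61) and 732791 (-0.29), so symbols in this list do not all name pyruvate dehydrogenase. The kinase PDK2 (0.39) and pdk1 542759, the pyruvate orthophosphate dikinase (0.72), did not pass.

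Among 7 measured genes of low-oxygen responses, 3 were higher, 2 were lower and 2 did not pass, with a median of 0.12. The ethylene-forming acco20 (1.90), the hemoglobin Hb2 (1.01) and the wall enzyme xet1 (0.66) were higher. ACO31 (-1.32), like acco20 an ACC oxidase gene, and the NADPH oxidase rbohB (-0.31) were lower. The alternative oxidase aox1 (0.12) did not pass, and the seventh, HB133 (-0.06), is a homeobox gene that matched by its symbol. In this stage contrast, which called 67.7% of all probe sets (40.9% higher and 26.8% lower), the internode markers were lower in 4 of 4. The leaf markers were called in 0 of 9, and the meristem markers were higher in 3 of 4 and lower in 1. The part of these markers in the stage changes of the fermentation enzymes was not tested.

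In RIL118 against the favorable lines 8 of the 36 list genes were called (22.2%), close to the 20.7% of all probe sets. These 8 include aox1, which passed the level filter through the favorable lines alone, as given below. frk1 was lower (-1.01) and the other 5 sucrose and hexose genes did not pass, and pk4 (0.75) alone of 10 glycolytic genes was called. PDK1 was higher (1.13) and pdh2 541700 lower (-0.47) among 13, and 11 did not pass. Of the low-oxygen genes xet1 (0.69) and rbohB (0.57) were higher, acco20 (-1.36) was lower, and Hb2, ACO31 and HB133 did not pass. The fourth call was aox1, which passed the level filter only through the favorable lines (4 of their 8 arrays above 5). Its means of 3.06 in RIL118 and 2.81 in the bin 6.06 class, against 4.44 in the favorable lines, are therefore a description, although both contrasts count it as lower.

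In the bin 6.06 class, where no fermentation enzyme was called, 10 of the 36 list genes were called and 26 did not pass. The share was 27.8%, against 18.3% of all probe sets. The 10 include aox1, which passed the level filter only through the favorable lines, so the share is not read as an excess. Of these calls, aldh2 (1.07), pdk1 542759 (1.19), PDK1 (0.70) and pk3 (0.90) were higher. acco20 (-1.77), sus2 (-1.26) and xet1 (-0.83) were lower, together with pdh2 541700 (-0.48) and pdh1 541699 (-0.29), and aox1 is the remaining one. No call was made for 5 of the 6 sucrose and hexose genes, 9 of the 10 glycolytic genes, 8 of the 13 for other fates and 4 of the 7 low-oxygen genes. Both contrasts share the favorable lines, so values common to them are not independent.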

How the data were processed

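Total RNA was labelled with biotin and measured on an Affymetrix maize array. Each deposited log2 value summarises a probe set and was made by the authors with GCRMA, per the submitters' processing notes; GCRMA corrects background, normalizes between arrays and summarises probes, and pulls dim probe sets to a floor. Its version is not given in the sources used here. Values ran from 1.37 to 15.2 and were not transformed again, and the number of arrays limits precision.

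The 179 control probe sets were left out. A maize probe set was tested when above 5 in at least 2 of 20 arrays, which kept 11033. limma 3.58.1 under R 4.3.3 fitted a mean for each of 10 groups (10 residual and 2.37 prior degrees of freedom, eBayes), with Benjamini-Hochberg adjustment over all tested probe sets and a threshold of 0.05. SE and p come from the spread between arrays, not between lines. The platform annotation named a gene for 1453 probe sets, and names and chromosomes came from RefSeq's table of Zm-B73-REFERENCE-NAM-5.0. Members and lists were chosen with earlier results of these data known. All members are named, with every measured list gene by its highest probe set (in order of change), and the 5 most and 3 least alike probe sets. Alternatives were filters, scalings, covariates, blocks, array weights and omitted arrays. Pairwise line tests and both 5′ settings were added after the data were seen. Replicate numbers were not used as pairs in the main fit. The replicate differences of 45 pairs of groups correlated at r from -0.436 to 0.512, above 0.1 in 16. These values do not settle whether some groups were paired.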

Additional observations from a re-analysis of the deposited data

Results flagged for a closer look

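In 6 of 36 groups of 4 to 10 arrays, a member's highest or lowest array stood away from the rest by Dixon's criterion, which chance meets in about 1 in 20 groups. Arrays of different lines were pooled in these groups, so a line that differs can meet it. The second RIL99 silking array was high for adh1 (13.63, next 13.33), and the first RIL71 tassel array was high for adh1 (13.50, next 13.09). The first RIL118 tassel array was low for adh2 (11.18, next 11.78) and high for pdc1 Zm.166.2.A1_a_at (6.31, next 3.83). In the bin 6.06 class, the second RIL71 tassel array was high for pdc1 (3.80, next 2.31). The second RIL39 silking array was low for pdc3 (11.00, next 11.99), and it was 1 of the 2 arrays with the lowest 5′ minus 3′ signal. No cause was tested for any of these.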

How the results depend on the processing

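Of 1633 member values recomputed, 1551 kept their direction and side of the threshold, 16 lost a call, 24 gained one and 42 changed sign. The RIL118 difference and the silking rise of pdc2 (Zm.10317.1.S1_at) kept their direction under every setting run, and lost no call except the stage call under the random block for line (0.76, adjusted p = 0.112). Having 2 arrays a group limits all values within lines. The replicate block, in which numbers were treated as pairs, changed no call: for pdc2 the stage change stayed at 0.76 and the RIL118 difference at 3.50.

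The adh1 stage call was lost after median centring (0.18), without RIL118 (0.20), without the 2 arrays of lowest 5′ minus 3′ signal (0.23) and given the RNA covariate (0.20), which also ended the adh2 stage call (0.29). The pdc3 RIL118 call was lost with array weights (-1.06, adjusted p = 0.0615). Values that were never called changed sign as follows. The pdc3 stage change was -0.10 with the RNA covariate and -0.013 with the 5′ covariate. The pdc3 bin 6.06 difference was 0.011 with the RNA covariate, 0.15 with the 5′ covariate and 0.069 without the 2 arrays of lowest 5′ signal, where its interaction with stage was 0.025. In RIL39 the pdc3 stage change was -0.029 under quantile normalization and -0.0288 after median centring, -0.18 with the RNA covariate and -0.31 with the 5′ covariate, and in RIL54 the adh1 change was -0.013 after median centring. The causes were not tested.

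Leaving out 1 array in turn gave these ranges. The bin 6.06 difference ran over -0.12 to 0.11 for pdc2 Zm.10317.1.S1_at and -0.21 to 0.060 for pdc3, whose interaction with stage ran over -0.49 to 0.043. The RIL118 difference ran over -0.89 to -0.41 for adh2 and -1.43 to -0.70 for pdc3. The RIL118 by stage interaction ran over -0.68 to 0.32 for pdc2, -0.11 to 0.17 for adh1, -0.96 to 0.017 for adh2 (called without the first RIL118 tassel array, adjusted p = 0.0302) and -0.24 to 1.22 for pdc3. The stage change in RIL118 ran over -0.046 to 1.2 for pdc2 Zm.14518.1.S1_s_at, -0.37 to 0.61 for adh2 and -0.059 to 1.4 for pdc3. At the ends of these ranges a single RIL118 array was left at a stage, so no call is read from them. For Zm.14518.1.S1_s_at the pooled spread also came mostly from arrays at the floor. For pdc3 the stage change ran over -0.52 to 0.55 in RIL39 and -0.45 to 0.27 in RIL71. For adh1 it ran over -0.42 to 0.059 in RIL71, -0.072 to 0.21 in RIL54 and 0.46 to 0.75 in RIL99, and for adh2 over 0.72 to 0.98 in RIL99. The adh2 change in RIL71 (0.42) was called without RIL118 or either RIL118 tassel array, and the adh2 difference of RIL71 minus RIL39 without either RIL118 tassel array. The pdc2 change in RIL99 (0.97) was called once any 1 silking array of RIL39 or RIL118 was left out, and likewise without RIL118, without the 2 arrays of lowest 5′ signal and with array weights (adjusted p of 0.0331 to 0.0497). RIL54 minus RIL99 ran over -0.13 to 0.017 for adh1. With the RNA covariate the counts of glycolytic genes lower (2), of other-fate genes higher (3) and of low-oxygen genes higher and lower (1 and 1) shrank, and with the random block 1 low-oxygen gene was lower.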
